A study of Mus musculus with 9 samples.

Results

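The comparison described here set CD11b+ cells from the livers of mice that received SIRP vesicles made by MSC after an acetaminophen overdose against the same cells from mice that received PBS. It used 6 of the 9 samples of the study, chosen by their treatment labels, 3 with vesicles (MSC-EV) and 3 with phosphate-buffered saline (PBS). Acetaminophen (APAP) had been injected into the abdomen in every mouse, PBS controls included, so no sample shows the uninjured liver. Vesicles were given into a vein 8 hours after APAP, and livers were taken 48 hours after APAP, dissociated, and enriched for cells carrying CD11b before bulk RNA sequencing. The remaining 3 samples came from mice given SIRP vesicles of HEK origin (HEK-EV; HEK is a line of human kidney cells). They shared the estimate of spread and served to show where the MSC-EV samples differed from another vesicle. The labels do not spell out MSC or SIRP. The mouse strain, age and sex, the dose of APAP and vesicles, and whether a sample is 1 mouse or a pool are not given in the sources used here, so p-values measure the spread between these samples, which may be technical in part. Of 45777 genes in the tables, 13521 reached 1 TPM (a relative abundance scaled for gene length and library) in at least 3 of the 6 samples and were tested.

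Acetaminophen is turned by hepatocyte cytochrome enzymes into a reactive product that binds cell proteins and kills hepatocytes around the central veins. Dying cells draw in neutrophils and Ly6C-high monocytes, which enter with an inflammatory programme and later turn into macrophages that clear dead cells, take up their lipid and release growth factors. CD11b, an integrin subunit encoded by Itgam, is carried by monocytes, many macrophages, neutrophils and some dendritic cells and lymphocytes. Extracellular vesicles are membrane particles shed by cells that can carry proteins and RNA into phagocytes. SIRP proteins form a receptor family of myeloid cells, and the best known member binds CD47.

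Sequencing depth could not be read from the tables, which gave coverage, FPKM and TPM alone. As a relative measure of depth, coverage divided by FPKM came to 5.28 in PBS replicate 1, to 6.06 and 6.32 in PBS replicates 2 and 3, and to between 6.58 and 6.84 after MSC vesicles. The PBS and MSC-EV samples did not overlap in this measure. The fits with depth as a covariate, given below, therefore cannot fully separate depth from treatment. On the first principal component of all 9 samples (39.4% of the variance) the MSC-EV samples lay at -23.2 to -17.8, PBS replicate 1 at -1.99, and the other 5 samples at 5.23 to 18.0. PBS replicate 1 thus lay closest to the MSC-EV samples. The 15 general myeloid markers were all expressed, and their summed level was 28714 to 30701 TPM in PBS and 25275 to 30884 TPM in MSC-EV. Their mean log2(TPM + 1) was 9.565 to 9.631 in PBS and 9.453 to 9.487 in MSC-EV, without overlap. Of the 15, 11 had a log2 fold change below 0, and the list median was -0.09. The MSC-EV values lay wholly below PBS in 6 (15% over all genes) and wholly above in 1 (11.2%). At the threshold used below, Ptprc was lower and Cd68 higher in MSC-EV. Ddx3y, a gene of chromosome Y, was at 41.5 to 53.85 TPM and Xist at 0 to 0.0109 TPM over all 9 samples, as in male cells. Pancreatic acinar transcripts set some libraries apart. The 24 acinar genes summed to 13.3 to 15.01 TPM in PBS, with 19 of them at 0 in every PBS sample. The sum was 172 TPM in MSC-EV replicate 1, 13.8 in replicate 2 and 3707 in replicate 3, and 44.2, 1322 and 15.4 TPM in HEK-EV replicates 1, 2 and 3. Of the 24 genes 2 passed the filter, and neither passed the test. Whether these transcripts have a part in the differences was not tested beyond the fits given beside the counts.

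In MSC-EV against PBS, 747 genes (5.52% of those tested) passed an adjusted p of 0.05, 278 higher (2.06%) and 469 lower (3.47%). Lipid-handling and lysosomal genes of macrophages, epithelial genes and mitochondrially encoded genes were among those that rose, and genes of inflammatory monocytes, of the interferon response and of the immediate early response were among those that fell. The median size was 0.71 (log2) in genes that rose and -0.51 in genes that fell, against a median of 0.01 over all genes tested. At least a 2-fold change was reached by 65 rising and 42 falling genes. Of the 278 rises, 50 were of genes that reached 1 TPM in no PBS sample and so could enter the test only by being high in MSC-EV; of the 469 falls, 8 were of genes that reached it in no MSC-EV sample. In all 747 genes the 3 MSC-EV values lay wholly above or wholly below the 3 PBS values, and over all tested genes this held for 11.2% in the higher and 15% in the lower direction. PBS replicate 1 was the PBS sample nearest to the MSC-EV mean in 607 of the 747 genes (81.3%). The number of calls rested on single libraries. It was 1923 without PBS replicate 1, 11 without PBS replicate 2, 24 without PBS replicate 3, 64 without MSC-EV replicate 1, 98 without MSC-EV replicate 2 and 347 without HEK-EV replicate 2. A term for the acinar split gave 185 calls with the split at its widest gap and 27 with it above the PBS samples, and 0 genes passed in limma when the libraries richest in acinar transcripts (HEK-EV replicate 2 and MSC-EV replicate 3) were left out, with 2739 genes at an unadjusted p under 0.05 and a smallest adjusted p of 0.0501. Without those libraries the median was -1.02 for inflammatory monocyte genes (-0.83 with them), 0.68 for lipid-associated macrophage genes (0.60) and -0.57 for immediate early genes (-0.55). It was 0.91 for biliary epithelium genes (0.96) and 0.21 for cell cycle genes (0.37). With the split above the PBS samples as a term, the monocyte, lipid-associated and immediate early medians were -0.64, 0.65 and -0.44. The share of calls that rose was 37.2%, and it was 47.5% after quantile normalization, 27.7% with a minimum of 5 TPM, 53.8% with no filter, 57.6% with depth as a covariate and 58.1% on FPKM, where 11800 genes were tested. The balance of rises and falls thus differed between settings. Since use of strand in the counting is not given, values of genes that overlap another gene are uncertain, which among those named below holds for Stab1 (Nt5dc2), Ccl3 (Ccl4), Il18 (Bco2), Ifi27l2a (Ifi27), Cp (Hps3), Npc1 (Rmc1), Ctsb (Fdft1), Stat6 (Nab2), Tiam2 (Tfb1m) and Atp1b1 (Nme7), and also for Il1b, Slfn1, Irak3, Gsr, Nr4a2, Cd74, ND1 and ND2, which overlap non-coding or predicted genes.

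**Figure D1:**
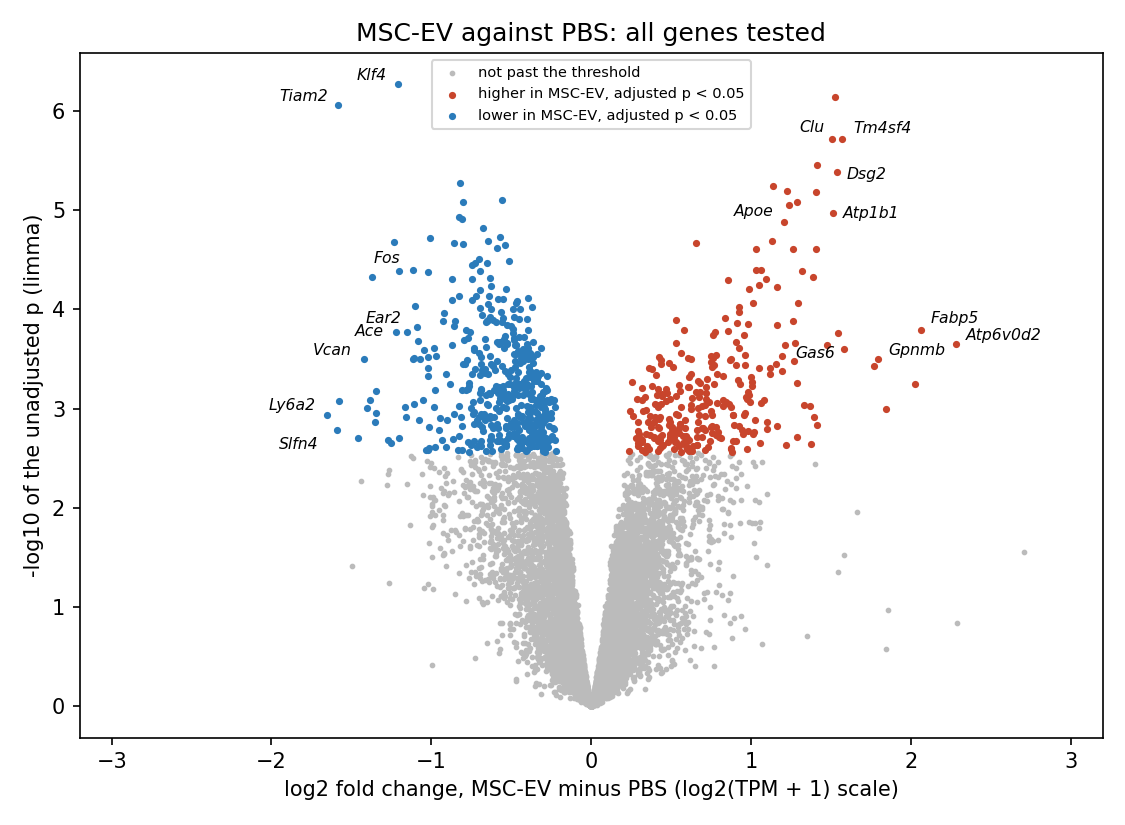
Each point is 1 of the 13521 genes tested, with the log2 fold change of MSC-EV against PBS on the x axis and -log10 of the unadjusted limma p on the y axis. The 278 genes that rose (red) and the 469 that fell (blue) at an adjusted p of 0.05 are coloured, and Klf4, Tiam2, Clu and Tm4sf4 lie near the top.

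Among 15 genes of inflammatory monocytes, all tested, 8 fell after MSC vesicles, 7 did not pass and none rose, where 3.47% of all genes tested fell. All 15 had a value below 0, with a list median of -0.83 against 0.01 over all genes. Vcan, which encodes the matrix proteoglycan versican made by recruited monocytes, was at 40.8, 56.8 and 59.1 TPM in PBS and at 16.9, 16.6 and 23.1 TPM in MSC-EV. The lowest PBS sample was well above the highest MSC-EV sample. Its log2 fold change was -1.42 (SE 0.259, adjusted p = 0.0224). Ly6c2, part of the Ly6C antigen that marks these monocytes, was at 504, 1226 and 1229 TPM in PBS and at 359, 381 and 337 TPM in MSC-EV (-1.35, SE 0.293, adjusted p = 0.0340). Here PBS replicate 1 lay far below the other PBS samples and not far above the MSC-EV samples. Plac8, a small cysteine-rich protein of immature myeloid cells, had the same shape, with 1460, 3589 and 3744 TPM in PBS and 1079, 1163 and 939 TPM in MSC-EV (-1.35, SE 0.304, adjusted p = 0.0368). Chil3, a chitinase-like secreted protein, stood at 2537, 4880 and 5224 TPM in PBS and 1206, 1421 and 2035 TPM in MSC-EV (-1.40, SE 0.300, adjusted p = 0.0316). The remaining members that fell were Ifitm6 (-1.11), Ms4a4c (-1.08), Hp (-0.81), which encodes haptoglobin, and S100a4 (-0.75). Ccr2, the receptor by which monocytes leave the marrow toward CCL2, did not pass, with 718, 843 and 759 TPM in PBS and 540, 728 and 621 TPM in MSC-EV (-0.30, SE 0.162, adjusted p = 0.300). The number of members that fell was 10 without PBS replicate 1, 1 without HEK-EV replicate 2, 3 without MSC-EV replicate 3, 0 without any one of PBS replicates 2 and 3 or MSC-EV replicates 1 and 2, 1 with only the 6 samples compared, and 0 with each acinar term and with the acinar-rich libraries left out. With no filter none fell, and with depth as a covariate 10 fell and the list median was -1.43. In bulk samples such as these, fewer cells of a type and less RNA per cell cannot be told apart.

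Further genes with large falls, named by size or from another list, are described next. Ly6c1 had 47.7, 112 and 108 TPM in PBS and 34.3, 33.5 and 28.7 TPM in MSC-EV (-1.35, SE 0.273, adjusted p = 0.0283). Chil4 went from 34.6, 69.3 and 71.8 TPM to 17.0, 18.7 and 27.9 TPM (-1.38, SE 0.289, adjusted p = 0.0298). Ly6c1 and Ly6c2, and Chil3 and Chil4, are near-identical pairs whose reads the counting could have split between them, so their separate values are uncertain. Fcnb, the ficolin B of myeloid precursors, was at 2.86, 5.69 and 8.88 TPM in PBS and 1.26, 1.58 and 2.22 TPM in MSC-EV (-1.25, SE 0.303, adjusted p = 0.0446). Ace, the angiotensin-converting enzyme, fell from 150, 261 and 210 TPM to 67.1, 99.0 and 96.1 TPM (-1.22, SE 0.205, adjusted p = 0.0200). Ear2, an eosinophil-associated ribonuclease also made by monocytes and macrophages, was at 538, 746 and 690 TPM in PBS and 224, 345 and 372 TPM in MSC-EV (-1.09, SE 0.180, adjusted p = 0.0195). In each of these genes the groups did not overlap, and PBS replicate 1 was the lowest PBS sample. Of the Ms4a family of membrane proteins, 9 of 12 genes were tested and 3 fell (Ms4a4b -1.02, Ms4a4c -1.08, Ms4a8a -0.76), where 3.47% of all genes tested fell. When single PBS or MSC-EV samples were left out, Ace passed in 3 of 6 fits, Ear2 in 4, Chil4 in 2, and Ly6c1 and Fcnb in 1, that without PBS replicate 1.

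**Figure D2:**
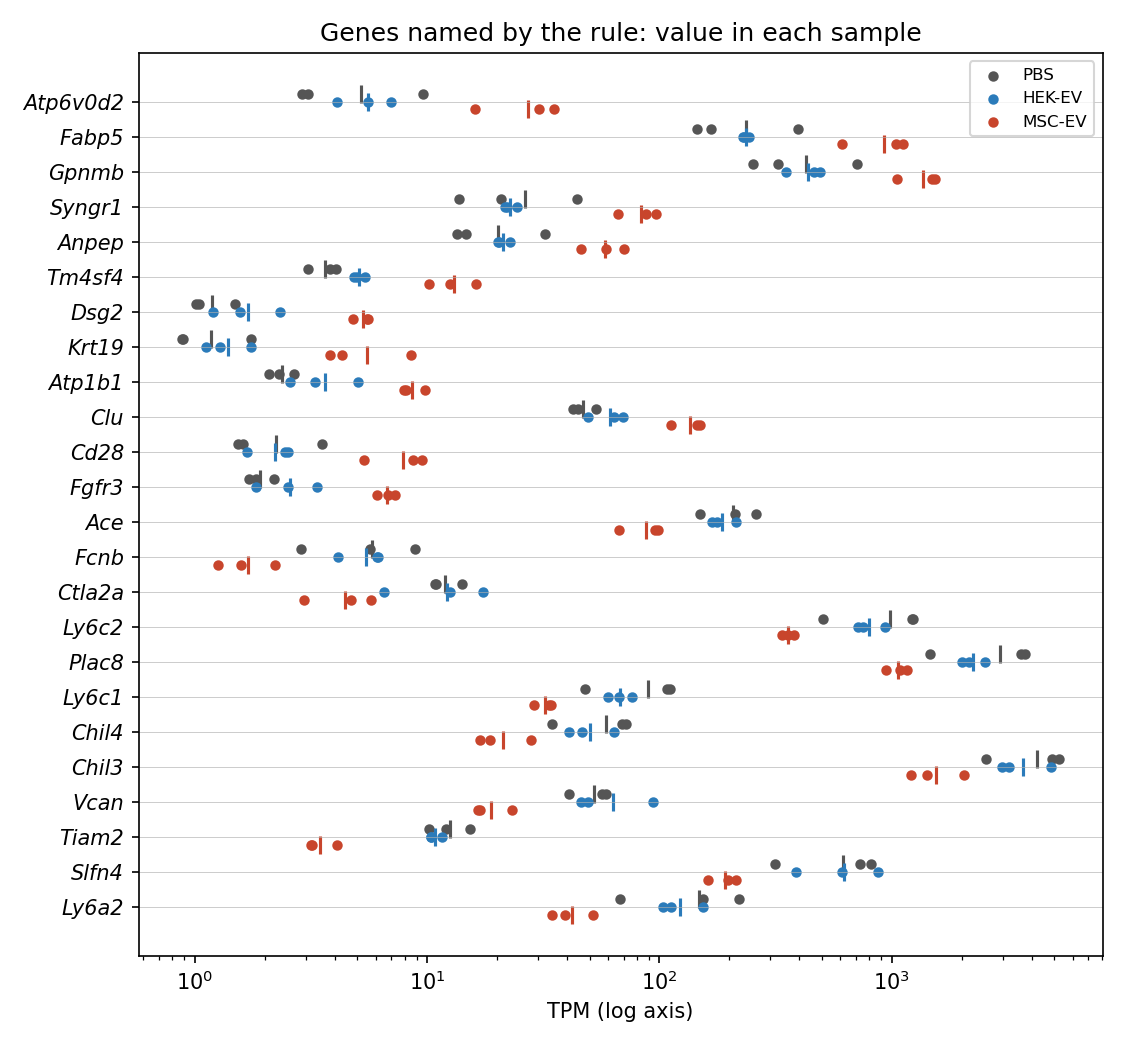
TPM on a log x axis in each of the 9 samples for the 24 genes with the largest called changes, with points for single samples and a vertical tick for the group mean. In every gene the 3 MSC-EV points lie on 1 side of the 3 PBS points, and PBS replicate 1 is often the PBS point nearest to them.

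Interferon-stimulated genes are those that cells switch on after sensing type I interferon. All 43 listed genes were tested, 10 fell, 33 did not pass and none rose, where 3.47% of all genes tested fell. A value below 0 was found in 41 of the 43, and the list median was -0.63. In 31 of the 43 the MSC-EV values lay wholly below the PBS values (15% over all genes in that direction). Oas1a, an oligoadenylate synthetase that arms an RNA-degrading enzyme against viral RNA, was at 230, 319 and 302 TPM in PBS and at 204, 184 and 186 TPM in MSC-EV (-0.55, SE 0.113, adjusted p = 0.0289). Oas3, its larger relative, was at 134, 260 and 210 TPM in PBS and 102, 85.1 and 107 TPM in MSC-EV (-0.99, SE 0.210, adjusted p = 0.0315). The groups did not overlap in either gene, and PBS replicate 1 was the lowest PBS sample in both. Oas1g (-0.63), Oasl1 (-1.01), Mx2 (-0.73), a dynamin-like antiviral GTPase, Ifi27l2a (-0.61), and Ddx58 (-0.66), which encodes the RNA sensor RIG-I, also fell. Slfn4, a Schlafen gene of myeloid cells, had the largest drop of the list, from 314, 729 and 814 TPM to 213, 162 and 197 TPM (-1.59, SE 0.366, adjusted p = 0.0394), and Slfn1 (-0.98) and Slfn5 (-0.70) fell with it. Several common reporters of the response did not pass. Isg15 was at 205, 427 and 373 TPM in PBS and 201, 140 and 160 TPM in MSC-EV (-0.95, SE 0.256, adjusted p = 0.0604), and Irf7 had a log2 fold change of -0.87 (adjusted p = 0.0671). Oas1a and Oas1g are close copies, as are the Schlafen genes among themselves, so the split of reads within these families is uncertain. Members that fell numbered 35 without PBS replicate 1, 5 without HEK-EV replicate 2, 3 without MSC-EV replicate 3, and 0 without PBS replicate 2 or 3, without MSC-EV replicate 1 or 2, with any of the acinar fits, with no filter or with only the 6 samples compared.

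The promoters of this list were searched for the element through which interferon acts on its targets. In the RefSeq promoter table (GRCm38.p6, 250 bases before to 50 after each gene's start), 32 of the 43 genes had a promoter. The core of the interferon-stimulated response element (GAAA, any 2 bases, GAAA) was searched on both strands and found in 20 of these 32 (62.5%), in 34 of 359 promoters of genes that fell (9.47%), in 6 of 190 of genes that rose (3.16%), and in 3.99% of all 27025 genes with a promoter in the table. Promoters of 3 OAS genes that fell are shown, since they hold the match close to the start. Each is the 250 bases before the RefSeq start, on the minus strand and read 5′ to 3′, with matches in capitals: Oas1a is chr5:120907526-120907775, Oas1g is chr5:120887614-120887863 and Oas3 is chr5:120777660-120777909.
Oas1a: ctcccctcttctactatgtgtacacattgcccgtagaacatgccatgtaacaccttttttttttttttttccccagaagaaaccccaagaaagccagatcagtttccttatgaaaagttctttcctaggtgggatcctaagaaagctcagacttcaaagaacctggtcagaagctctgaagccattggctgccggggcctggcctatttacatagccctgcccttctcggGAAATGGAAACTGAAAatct
Oas1g: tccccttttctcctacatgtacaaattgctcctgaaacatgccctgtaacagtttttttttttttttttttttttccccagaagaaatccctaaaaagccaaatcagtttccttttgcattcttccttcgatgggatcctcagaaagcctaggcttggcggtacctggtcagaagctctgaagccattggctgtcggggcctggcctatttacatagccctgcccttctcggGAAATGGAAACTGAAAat
Oas3: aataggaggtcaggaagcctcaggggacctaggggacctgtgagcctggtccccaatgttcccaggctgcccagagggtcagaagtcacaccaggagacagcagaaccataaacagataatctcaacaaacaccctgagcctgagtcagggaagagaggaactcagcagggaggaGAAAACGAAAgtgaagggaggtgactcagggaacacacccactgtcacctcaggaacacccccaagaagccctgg
In Oas1a and Oas1g there were 2 overlapping matches, which began 20 and 14 bases before the start in Oas1a and 18 and 12 bases before it in Oas1g. Oas3 had 1 match, beginning 75 bases before the start. Slfn5 held 1 match 155 bases before its RefSeq start, and the 250 bases before the start of Oasl1, Ddx58, Slfn1 and Slfn4 held none. The counts above were made over the whole promoter entries and not these 250 bases alone. By that count 5 of the 8 members that fell and had a promoter held the core (62.5%). This was the same share as over the list. A match is a run of letters and not a shown binding site, and the deposited gene models of Oas1a and Oas3 begin slightly further upstream than the RefSeq starts.

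Immediate early genes, transcription factors and feedback regulators induced within minutes of stimulation or tissue handling, had 13 falls and 1 rise among 27 genes, all tested, and a median of -0.55. Over all genes tested, 3.47% fell and 2.06% rose. Klf4, a zinc-finger factor of monocyte and macrophage differentiation, was at 101, 109 and 106 TPM in PBS, at 67.2 to 70.7 TPM in HEK-EV and at 36.9, 49.5 and 49.5 TPM in MSC-EV. The values of the 3 groups did not overlap, and HEK-EV against PBS did not pass (-0.60, adjusted p = 0.899). Its log2 fold change against PBS was -1.21 (SE 0.103, adjusted p = 0.00393), and that against HEK-EV was -0.61 (adjusted p = 0.0190). Fos, a subunit of the AP-1 factor, was at 1284, 1421 and 1611 TPM in PBS and 580, 593 and 839 TPM in MSC-EV (-1.11, SE 0.156, adjusted p = 0.0126), so its lowest PBS value was above its highest MSC-EV value. Fosb (-0.69), Jun (-0.47) and Jund (-0.61) of the same factor fell as well. Atf3, a stress-induced repressor, was at 718, 667 and 758 TPM in PBS, 431, 413 and 533 TPM in HEK-EV and 420, 454 and 443 TPM in MSC-EV. The 2 vesicle groups lay below PBS in Atf3, although HEK-EV against PBS did not pass (-0.64, adjusted p = 0.823), with an adjusted p of 0.0123 for MSC-EV against PBS (-0.70, SE 0.0949) and of 0.775 for MSC-EV against HEK-EV (-0.06). Nr4a1, an orphan nuclear receptor needed for patrolling monocytes, was at 699, 894 and 1015 TPM in PBS and 478, 512 and 501 TPM in MSC-EV (-0.79, SE 0.146, adjusted p = 0.0233). Its relative Nr4a3 went the other way, from 16.1, 11.4 and 13.7 TPM to 36.0, 33.1 and 26.9 TPM (1.16, SE 0.192, adjusted p = 0.0192), while Nr4a2 fell (-0.59). Ier5 (-0.75), Klf2 (-0.74), Ier2 (-0.66), Zfp36 (-0.63), which encodes the mRNA decay factor tristetraprolin, and the phosphatase Dusp2 (-0.55) made up the rest. Members that fell numbered 1 without PBS replicate 2 and 1 without PBS replicate 3, 2 without MSC-EV replicate 1, 4 without MSC-EV replicate 2, 8 without HEK-EV replicate 2, 6 and 1 with the acinar terms (widest gap and above PBS), and 0 with the 2 libraries left out. With no filter 6 fell, and with only the 6 samples compared 8 fell. Klf4 passed in all 6 fits that left out a PBS or MSC-EV sample.

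Of 16 genes of lipid-associated macrophages, phagocytes that take up lipid from dying cells, all were tested, 10 rose, 6 did not pass and none fell, and the median was 0.60. Over all genes tested, 2.06% rose. Apoe, the apolipoprotein by which macrophages export cholesterol, was at 4197, 6431 and 5324 TPM in PBS, 7046, 7588 and 6195 TPM in HEK-EV and 12920, 11487 and 11895 TPM in MSC-EV. Every MSC-EV value was above every value of the other groups (1.21 against PBS, SE 0.148, adjusted p = 0.00953, and 0.80 against HEK-EV, adjusted p = 0.0224). Fabp5, a fatty acid carrier of the cytosol, was at 394, 146 and 167 TPM in PBS and 1121, 1039 and 608 TPM in MSC-EV (2.06, SE 0.344, adjusted p = 0.0200). Gpnmb, a transmembrane glycoprotein induced under lysosomal load, was at 705, 323 and 252 TPM in PBS and 1489, 1538 and 1056 TPM in MSC-EV (1.80, SE 0.328, adjusted p = 0.0224). In Fabp5 and Gpnmb, PBS replicate 1 was the highest PBS sample and MSC-EV replicate 3 the lowest of its group, and the groups still did not overlap. Trem2, the lipid receptor that drives this state, was at 417, 307 and 308 TPM in PBS and 528, 505 and 461 TPM in MSC-EV (0.54, SE 0.119, adjusted p = 0.0346). The tetraspanin Cd63 (1.16), Fabp4 (0.89), the proteases Ctsd (0.75) and Ctsb (0.60), the galectin Lgals3 (0.59) and the lipase Lpl (0.52) rose too. Spp1, which encodes osteopontin, did not pass, with 1702, 732 and 981 TPM in PBS and 1970, 2336 and 1754 TPM in MSC-EV (0.91, SE 0.261, adjusted p = 0.0725), and Mmp12 had a log2 fold change of -0.64 (SE 0.173, adjusted p = 0.0625). Members that rose numbered 13 without PBS replicate 1, 6 without HEK-EV replicate 2, 4 with the acinar term at the widest gap, 2 with no filter, 1 with only the 6 samples compared, 1 without PBS replicate 2, PBS replicate 3, MSC-EV replicate 1 or MSC-EV replicate 2, and 0 with the other acinar fits. The member that passed in all 6 fits that left out a PBS or MSC-EV sample was Apoe.

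Lists of lysosomal and cholesterol genes are read against the 5.52% of all genes that passed (2.06% higher), and the shares in the pump and efflux lists were near it. Atp6v0d2, the myeloid form of a membrane-sector subunit of the proton pump that acidifies lysosomes, had the largest called change of a named gene, from 9.59, 2.91 and 3.07 TPM in PBS to 35.2, 30.3 and 16.1 TPM in MSC-EV (2.28, SE 0.398, adjusted p = 0.0212). It was the member of the pump list that rose out of 19 tested, and that list's median was 0.08. Of 42 lysosomal hydrolases, 5 rose and 1 fell, with a median of 0.13. Ctsk, a collagen-cutting cathepsin, was at 6.08, 4.40 and 4.12 TPM in PBS and 11.6, 11.8 and 8.00 TPM in MSC-EV (0.96, SE 0.174, adjusted p = 0.0224), and Ctsd, Ctsb, Gla (0.47) and Tpp1 (0.29) also rose. Ctsc, which activates granule proteases, fell (-0.37, adjusted p = 0.0398). Of 25 lysosomal membrane and TFEB family genes tested, Cd63, the cholesterol exporter Npc1 (0.53) and Cd68 (0.32) rose. That count was 8 without PBS replicate 1, 1 without MSC-EV replicate 3 or any one HEK-EV sample, and 0 without any other sample. The letters CACGTG, the core of the CLEAR element of lysosomal genes, stood in the promoters of 10 of 35 hydrolase genes (28.6%) in 12% of those of all tested genes and in 11.6% of those of genes that rose. The full CLEAR element was found in 0 of the 35, and in 0.849% of the promoters of all tested genes. Fatty acid genes outside the list above showed no further calls, since the 3 of 27 that rose were Fabp4, Fabp5 and Lpl. None of the 24 tested genes of cholesterol synthesis and uptake passed in the main limma fit. With array quality weights, where 31.1% of all genes passed, 6 of them passed as higher and 3 as lower. With depth as a covariate 1 passed as lower, as did 1 without PBS replicate 1. Among 15 genes of cholesterol efflux Apoe rose, while Abca1 had a log2 fold change of 0.68 (SE 0.211, adjusted p = 0.0874). Atp6v0d2 passed without PBS replicate 1 and without MSC-EV replicate 3, and not without any one of the other 4 samples compared (adjusted p up to 0.103). The number of hydrolases that rose was 13 without PBS replicate 1, 3 without HEK-EV replicate 2, and 0 without PBS replicate 2 or 3 or MSC-EV replicate 1 or 2.

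**Figure D3:**
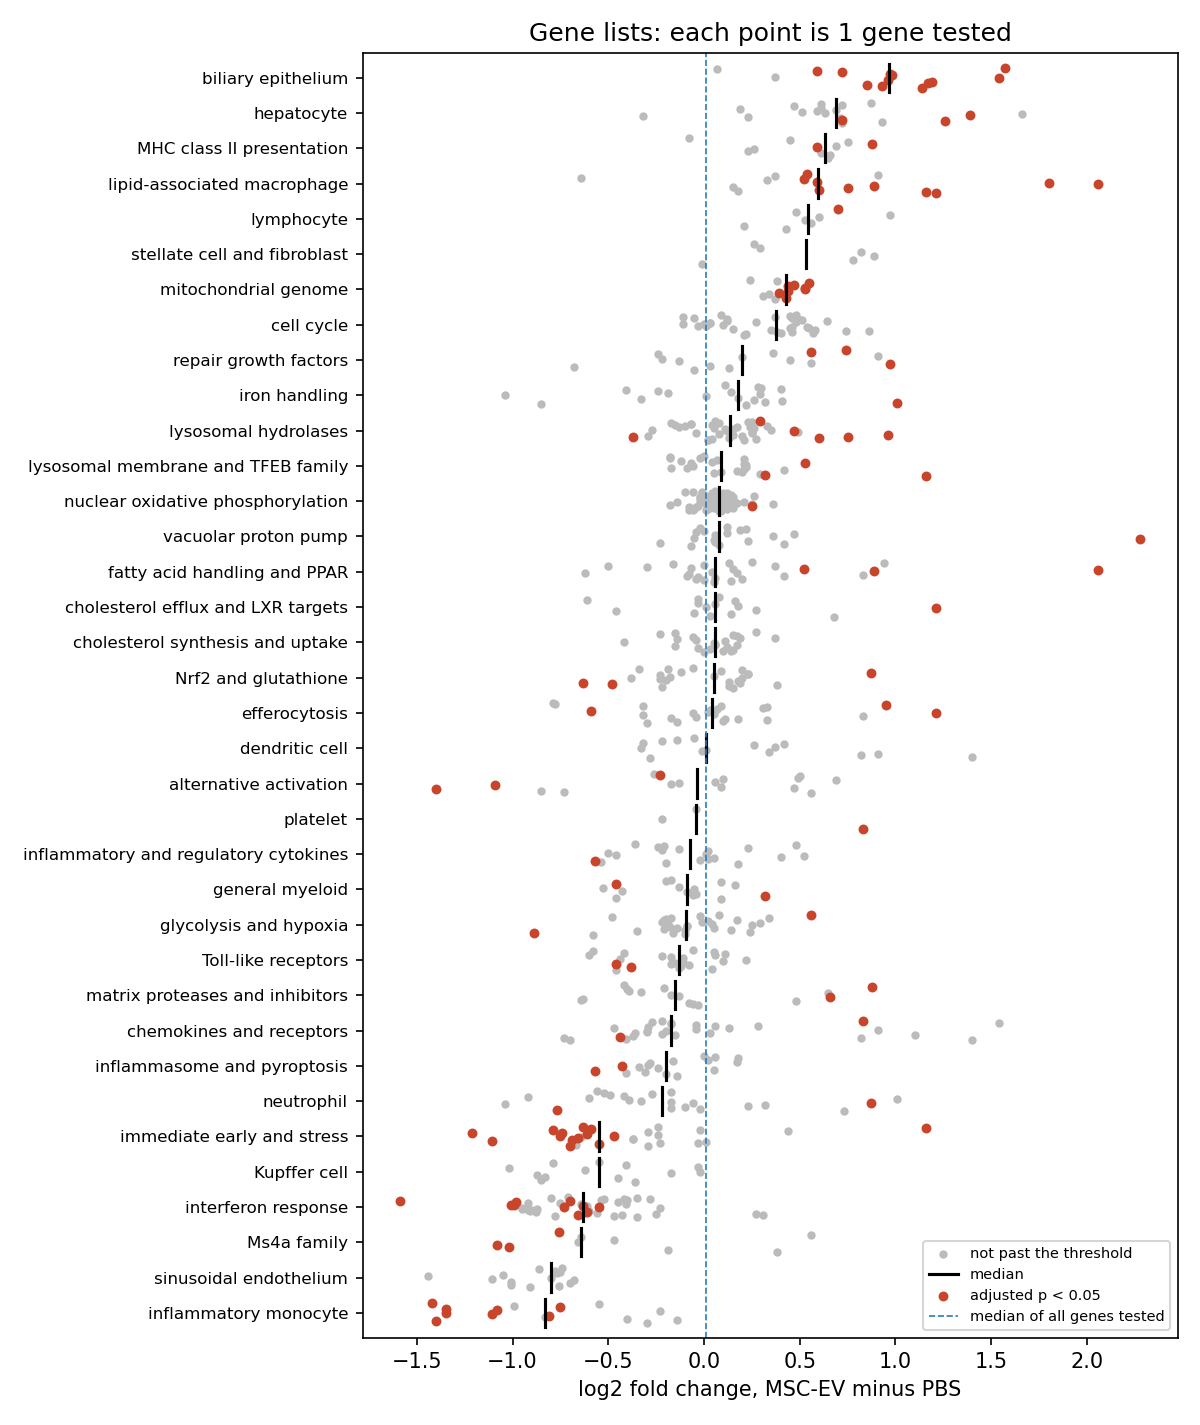
The log2 fold change of MSC-EV against PBS for each tested gene of the lists with at least 3 tested genes, with genes past an adjusted p of 0.05 in red, a black bar for the list median and a dashed line for the median of all genes (0.01). Biliary epithelium (median 0.96) lies at the top and inflammatory monocyte (median -0.83) at the bottom.

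Single genes passed in the lists of clearance and repair, where the share over all genes was 2.06% higher and 3.47% lower. Gas6, which bridges dead cells to the receptors MERTK and AXL, was at 68.3, 34.1 and 37.6 TPM in PBS and 113, 106 and 94.4 TPM in MSC-EV (1.21, SE 0.212, adjusted p = 0.0212). Stab1, a scavenger receptor, rose from 177, 109 and 104 TPM to 279, 208 and 252 TPM (0.95, SE 0.223, adjusted p = 0.0419). Together with Itgb3, an integrin subunit that fell (-0.59), these were the calls among 24 tested efferocytosis genes, whose median was 0.04. The receptor Mertk had a log2 fold change of 0.31 (SE 0.148, adjusted p = 0.240). Of 15 tested growth factors 3 rose: Igf1, a macrophage-derived growth factor of repair, from 83.5, 48.5 and 43.4 TPM to 119, 107 and 107 TPM (0.97, SE 0.200, adjusted p = 0.0296), Vegfb (0.74) and Vegfa (0.56). Timp2 (0.88) and the collagenase activator Mmp14 (0.66) rose among 16 tested matrix genes. Of 16 alternative activation genes none rose and 3 fell, Chil3, Ear2 and Stat6 (-0.23), while Mrc1 did not pass (0.10, adjusted p = 0.857). Gas6 passed without PBS replicate 1 and without MSC-EV replicate 3, and Igf1 and Stab1 passed without PBS replicate 1 alone among those 6 fits. Timp2 and Mmp14 passed in 2 of the 6 and Stat6 in 1, that without PBS replicate 1. Matrix genes that rose numbered 3 without PBS replicate 1 and 0 without PBS replicate 2 or 3, HEK-EV replicate 2, or MSC-EV replicate 1 or 2. Alternative activation genes that fell numbered 5 without PBS replicate 1 (with 1 rise), 1 without HEK-EV replicate 2, MSC-EV replicate 1 or MSC-EV replicate 2, and 0 without PBS replicate 2 or 3. Growth factors that rose numbered 6 without PBS replicate 1, 1 without HEK-EV replicate 1, HEK-EV replicate 3 or MSC-EV replicate 3, and 0 without any other sample. Ms4a genes that fell, given above, numbered 7 without PBS replicate 1, 2 without HEK-EV replicate 1, HEK-EV replicate 3 or MSC-EV replicate 3, 1 without HEK-EV replicate 2 and 0 without any other sample.

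Cytokine, chemokine and sensor lists had calls in 1 of 20, 2 of 29, 2 of 17 (inflammasome) and 2 of 23 (Toll-like receptor) tested genes, where 5.52% of all genes passed. Of 20 cytokine genes tested, Il18, which caspase-1 matures, fell from 59.3, 81.8 and 70.05 TPM to 47.5, 39.0 and 54.6 TPM (-0.57, SE 0.137, adjusted p = 0.0436). Il1b was at 1319, 1546 and 2158 TPM in PBS and 1871, 1732 and 1496 TPM in MSC-EV, with overlapping groups (0.05, SE 0.180, adjusted p = 0.907), and Tnf also did not pass (-0.21, adjusted p = 0.449). Among 29 chemokine genes Ccl3 fell (-0.44, adjusted p = 0.0311) and Pf4 rose (0.83, adjusted p = 0.0314), and Ccl2 did not pass (-0.41, SE 0.257, adjusted p = 0.386). Pf4 is abundant in platelets as well as in macrophages, and Ppbp, another platelet chemokine, was at 0.366 to 1.81 TPM in PBS and 0.398 to 1.10 TPM in MSC-EV. Naip2 (-0.43), a sensor of bacterial secretion systems, and Il18 fell among 17 inflammasome genes, and the adaptor Myd88 (-0.46) and its inhibitor Irak3 (-0.38) fell among 23 Toll-like receptor genes. Of 25 tested Nrf2 and glutathione genes the cystine transporter Slc7a11 rose (0.87) and Gsr (-0.63) and Gpx1 (-0.48) fell. Cp, the ferroxidase ceruloplasmin, rose among 19 iron genes (1.01, SE 0.200, adjusted p = 0.0277). All of these calls were lost without PBS replicate 2 and without PBS replicate 3.

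Of the 13 protein genes of the mitochondrial genome 8 rose and none fell, with a median of 0.43, where 2.06% of all genes tested rose. ND2, a subunit of respiratory complex I, was at 2490, 2036 and 2317 TPM in PBS and 3311, 3417 and 3146 TPM in MSC-EV (0.53, SE 0.0863, adjusted p = 0.0185), and ND1 was at 4356, 3521 and 4098 TPM against 5744, 5919 and 5577 TPM (0.53, SE 0.0923, adjusted p = 0.0212). The groups did not overlap in either. Of 65 nuclear genes of the same complexes 1 rose (Cyc1, 0.25), 48 were above 0 and the median was 0.08, and after quantile normalization 3 rose; the difference between these lists was not tested. Mitochondrially encoded transcripts took 5.44% to 6.48% of TPM in PBS and 7.55% to 7.90% in MSC-EV. Their share can also rise with cell stress and vary with RNA quality. The part of cell quality in these differences was not tested. Of 12 MHC class II genes H2-DMb2 (0.59, adjusted p = 0.0385) and H2-Eb2 (0.88, adjusted p = 0.0476) rose, where 2.06% of all genes tested rose. The list median was 0.63, and the invariant chain Cd74 did not pass (0.65, SE 0.199, adjusted p = 0.0828). None of 36 cell cycle genes passed in the main limma fit, and their median was 0.37. That median was -0.06 with the acinar split above PBS as a term, 0.67 without PBS replicate 1 and 1.15 with depth as a covariate. In the fit with depth 2 cell cycle genes passed as higher, where 803 of all 13521 genes did. With array quality weights 4 did, where 2032 of all 13521 genes did. Neither share was above that over all genes. Mitochondrial genes that rose numbered 12 without PBS replicate 1, 3 without MSC-EV replicate 3 and 0 without PBS replicate 2 or 3 or MSC-EV replicate 1 or 2, and quantile normalization left 3. They numbered 2 with only the 6 samples compared, 1 with the acinar term at the widest gap, and 0 with no filter or the other acinar fits. MHC class II genes that rose numbered 9 without PBS replicate 1, 3 without MSC-EV replicate 3, 1 without HEK-EV replicate 2 or 3, and 0 without HEK-EV replicate 1, PBS replicate 2 or 3, or MSC-EV replicate 1 or 2. None rose with no filter, with only the 6 samples compared or with any of the acinar fits.

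Transcripts of cells that do not carry CD11b differed between the same groups. Of 17 biliary epithelium genes 14 were tested, 12 rose and none fell, and the median was 0.96. Over all genes tested, 2.06% rose. Of the 14, 3 reached 1 TPM in the MSC-EV samples alone and so could enter the test only if high there, and all 3 are among the 12. With no filter 9 of 17 rose. Their summed level was 26.7 to 33.7 TPM in PBS, 37.1 to 39.3 TPM in HEK-EV and 58.4 to 84.6 TPM in MSC-EV, so the 3 groups did not overlap. Tm4sf4, a tetraspan protein of hepatic and biliary epithelium, was at 3.08, 3.82 and 4.05 TPM in PBS, 4.86 to 5.41 TPM in HEK-EV and 10.2, 16.3 and 12.5 TPM in MSC-EV (1.57, SE 0.154, adjusted p = 0.00520). Krt19, the keratin that marks bile duct cells, was at 0.891, 0.884 and 1.74 TPM in PBS and 3.82, 8.50 and 4.29 TPM in MSC-EV (1.54, SE 0.260, adjusted p = 0.0200). Cdh1, the epithelial cadherin, was at 2.90, 2.82 and 2.22 TPM in PBS and 6.24, 7.66 and 7.18 TPM in MSC-EV (1.14, SE 0.127, adjusted p = 0.00803). Epcam (1.17), Krt8 (0.98), Krt18 (0.96), Muc1 (0.97), Cldn7 (0.93), Ehf (0.85), Sox9 (0.72) and St14 (0.59) rose as well, from PBS means of 0.412 TPM (Sox9) to 4.96 TPM (Krt8). Krt8 passed in none of the 6 fits that left out a PBS or MSC-EV sample (adjusted p of 0.0524 to 0.177), and Sox9 and St14 passed in 1, that without PBS replicate 1. Members that rose numbered 2 without PBS replicate 2, 2 without PBS replicate 3, 5 without MSC-EV replicate 1, 4 without MSC-EV replicate 2, 7 with the acinar split at its widest gap, 3 with the split above PBS as a term, and 0 with the 2 acinar-rich libraries left out. With depth as a covariate 5 rose, and with only the 6 samples compared 8 rose.

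Of 25 hepatocyte genes 19 were tested, 3 rose and none fell, where 2.06% of all genes tested rose. The median was 0.69, and the summed level was 346 to 441 TPM in PBS and 546 to 765 TPM in MSC-EV. With depth as a covariate the median was 0.44 and 1 rose, and with the acinar split above PBS as a term it was 1.05 and 1 rose. Ambp, a plasma protein precursor of hepatocytes, was at 9.03, 9.49 and 9.64 TPM in PBS and 22.4, 27.8 and 21.999 TPM in MSC-EV (1.26, SE 0.167, adjusted p = 0.0102). Cyp2e1, the enzyme that activates acetaminophen, was at 0.929, 1.07 and 1.17 TPM in PBS and 3.28, 8.60 and 2.81 TPM in MSC-EV (1.39, SE 0.308, adjusted p = 0.0352), and Apoa1 rose by 0.72. Alb, the most abundant of them in these libraries, was at 135, 136 and 185 TPM in PBS and 278, 329 and 257 TPM in MSC-EV without passing (0.93, SE 0.241, adjusted p = 0.0544). Sinusoidal endothelium and Kupffer cell genes pointed the other way without a call in the main limma fit. All 15 endothelial genes had a value below 0 (median -0.80), where 52.3% of all genes tested were above 0, and 13 of them lay wholly below PBS (15% of all genes did); they summed to 492 to 601 TPM in PBS and 209 to 389 TPM in MSC-EV. Of the 15, 14 passed with array quality weights, 4 after quantile normalization, 3 with the spread estimated from the 6 compared samples alone, and 1 each on FPKM and with a minimum of 5 TPM. The 13 Kupffer cell genes had a median of -0.55 and a summed level of 3560 to 4343 TPM in PBS and 2102 to 3566 TPM in MSC-EV. That median was -0.12 with depth as a covariate, with 4 genes above 0, and -0.83 with the acinar-rich libraries left out. With array quality weights 6 Kupffer cell genes passed as lower, where 2171 of all 13521 genes did. Clec4f, the lectin of resident Kupffer cells, was at 668, 635 and 538 TPM in PBS and 307, 265 and 498 TPM in MSC-EV (-0.83, SE 0.293, adjusted p = 0.123). Of 22 tested neutrophil genes Cd177 fell (-0.77, adjusted p = 0.0281) and Ltf rose (0.87, adjusted p = 0.0315), with a median of -0.22 and a summed level of 3845 to 7006 TPM in PBS and 3849 to 4715 TPM in MSC-EV. These 2 calls of 22 stand beside 5.52% over all genes, and each passed in 2 of the 6 fits that left out a PBS or MSC-EV sample. Neutrophil genes that fell numbered 7 without PBS replicate 1 and 4 with depth as a covariate, and the list median ran from -0.68 to -0.03 over the alternatives. The 18 lymphocyte genes summed to 42.5 to 72.8 TPM in PBS and 77.5 to 93.2 TPM in MSC-EV. Only 8 of them were tested, and 1, Nkg7, rose (0.70, adjusted p = 0.0385). Among the 6 fits that left out a PBS or MSC-EV sample, Nkg7 passed in limma without PBS replicate 1 alone (adjusted p up to 0.150 in the others). None of the dendritic cell, stellate cell, erythroid or mast cell, basophil and eosinophil genes passed in the main fit. Without PBS replicate 1, 4 dendritic cell genes passed as higher and 1 as lower, and 2 stellate cell genes as higher. These numbers were 2, 1 and 3 with depth as a covariate, and 6, 2 and 4 with array quality weights. Over all 13521 genes, 967 passed as higher and 956 as lower without PBS replicate 1. The counts over all genes were 803 and 590 with depth, and 2032 and 2171 with the weights. The part that a different mix of cells has in the monocyte, interferon, immediate early and macrophage results was not tested. The number of hepatocyte genes that rose was 7 without HEK-EV replicate 1 or 3, 1 without HEK-EV replicate 2, MSC-EV replicate 1 or MSC-EV replicate 2, 2 without MSC-EV replicate 3, and 0 without PBS replicate 2 or 3, while 9 and 4 endothelial genes passed as lower without HEK-EV replicates 1 and 3 in turn.

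**Figure D4:**
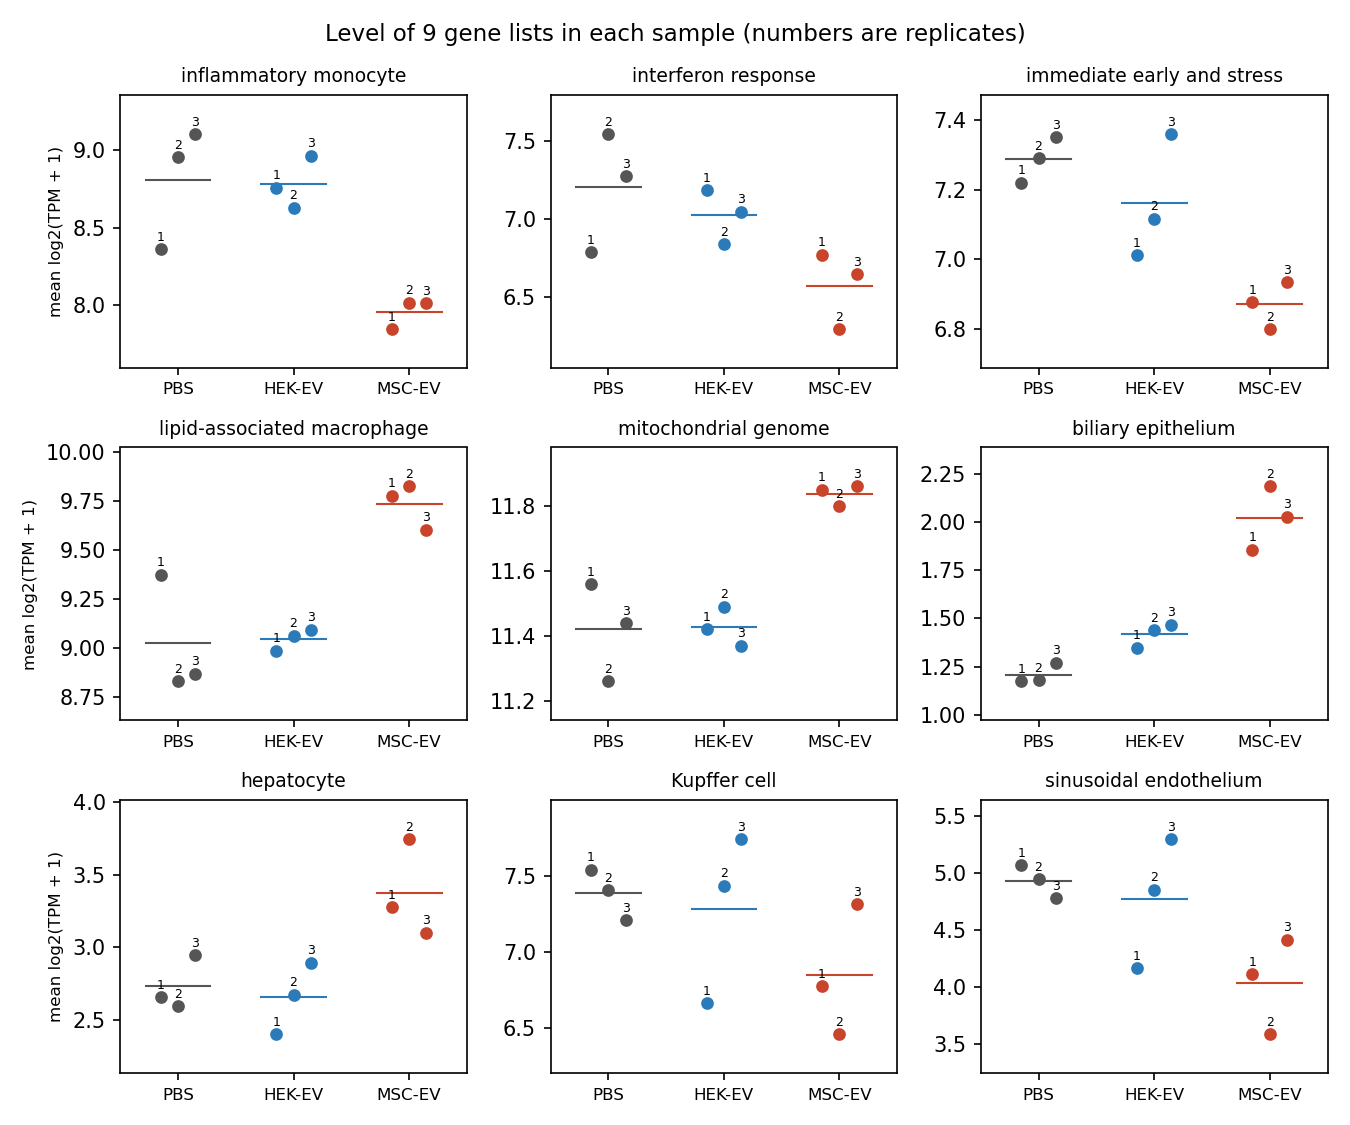
Mean log2(TPM + 1) over all listed genes of 9 lists, with 1 numbered point per sample and a line at the group mean; the y axes differ and do not start at 0. The MSC-EV samples sit apart from PBS in 8 of the 9 panels, by the least in the interferon panel (MSC-EV up to 6.77, PBS from 6.79), and in the Kupffer cell panel MSC-EV replicate 3 lies among the PBS samples.

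The genes named by size that belong to none of these lists had varied roles. Clu, the secreted chaperone clusterin, was at 53.2, 44.5 and 42.6 TPM in PBS and 112, 145 and 150 TPM in MSC-EV (1.51, SE 0.148, adjusted p = 0.00520). Dsg2, a desmosomal cadherin of epithelia, was at 1.48, 1.02 and 1.04 TPM in PBS and 4.81, 5.52 and 5.59 TPM in MSC-EV (1.54, SE 0.165, adjusted p = 0.00803). Tiam2, which activates the GTPase RAC1, fell from 10.2, 12.03 and 15.4 TPM to 4.07, 3.19 and 3.15 TPM (-1.59, SE 0.142, adjusted p = 0.00393). In these genes the gap between the groups was wide against the spread within them. Syngr1, a vesicle membrane protein, rose from 44.4, 13.7 and 20.7 TPM to 96.6, 87.4 and 66.1 TPM (1.77, SE 0.330, adjusted p = 0.0235). Anpep, the aminopeptidase CD13 of myeloid cells and epithelia, rose from 32.3, 14.6 and 13.4 TPM to 70.5, 59.1 and 46.0 TPM (1.58, SE 0.280, adjusted p = 0.0218). Cd28, best known as a costimulatory receptor of T cells, rose from 3.53, 1.53 and 1.61 TPM to 9.47, 8.68 and 5.37 TPM (1.48, SE 0.258, adjusted p = 0.0212). In all 3 PBS replicate 1 was the highest PBS sample. Fgfr3, a fibroblast growth factor receptor (1.41, SE 0.159, adjusted p = 0.00803), and Atp1b1, a sodium pump subunit (1.51, SE 0.181, adjusted p = 0.00916), also rose. Ly6a2 (-1.65, SE 0.362, adjusted p = 0.0345), a member of a family of near-identical genes, and Ctla2a (-1.27, SE 0.304, adjusted p = 0.0438), a cathepsin inhibitor, fell. Syngr1, Anpep and Cd28 kept their call in 2 of the 6 fits that left out a PBS or MSC-EV sample, Ly6a2 and Ctla2a in 1, and Fgfr3 and Atp1b1 in 5, all but the fit without PBS replicate 2.

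Of the 747 genes, 10 passed in all 6 fits that left out 1 PBS or MSC-EV sample, and they are named here after their values were seen: Klf4, Tiam2, Clu, Tm4sf4, Cdh1, Lurap1l, Prom1, Dsg2, Anxa13 and Apoe. Klf4 and Tiam2 were lower in MSC-EV and the other 8 higher. Prom1, the membrane protein CD133 of epithelial progenitors, was at 0.386, 0.372 and 0.555 TPM in PBS and 2.57, 3.15 and 2.76 TPM in MSC-EV (1.41, SE 0.148, adjusted p = 0.00793). Anxa13, an annexin of epithelia, was at 1.45, 1.68 and 1.47 TPM in PBS and 4.38, 5.47 and 4.98 TPM in MSC-EV (1.23, SE 0.138, adjusted p = 0.00803). Lurap1l had 0.857, 0.891 and 0.998 TPM in PBS and 3.91, 5.44 and 4.32 TPM in MSC-EV (1.53, SE 0.134, adjusted p = 0.00393). Prom1 and Lurap1l reached 1 TPM in no PBS sample, so they entered the test only through the group in which they were high, as did 85 of the 13521 genes. The 3 genes were at low levels in the PBS cells, and the biliary list, summed, differed between the groups in the same direction, as given above; its part in them was not tested. A further 295 genes passed in 1 such fit, 346 in 2 and 5 in none. All 747 kept their direction in every alternative that gave them a value.

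The MSC-EV samples were also tested against the HEK-EV samples, in which the same kind of vesicle came from another cell. Here 895 genes (6.62%) passed, 243 higher (1.8%) and 652 lower (4.82%) in MSC-EV. The comparison of HEK-EV with PBS gave 0 calls in limma, with 480 genes at an unadjusted p under 0.05. These comparisons share samples, so their values are set side by side. Inflammatory monocyte genes had a median of -0.97 in MSC-EV against HEK-EV (8 of 15 fell) and of -0.14 in HEK-EV against PBS. Lipid-associated macrophage genes stood at 0.62 (9 of 16 rose) and 0.02, and mitochondrial genes at 0.42 (9 of 13 rose) and 0.01. Interferon genes stood at -0.49 (4 of 43 fell) and -0.17, immediate early genes at -0.40 (8 of 27 fell, 1 rose) and -0.17, and biliary genes at 0.72 (9 of 14 rose) and 0.25. Hepatocyte genes had a median of 0.88 (7 of 19 rose) and of -0.15. Itgam, which encodes the CD11b used to enrich the cells, was lower in MSC-EV than in HEK-EV (-0.70, adjusted p = 0.0237) and did not pass against PBS (-0.53, SE 0.133, adjusted p = 0.0514), and Ptprc, the leukocyte marker CD45, was lower in both (-0.53, adjusted p = 0.0189, and -0.46, SE 0.0872, adjusted p = 0.0248). Against PBS the Ptprc call held without PBS replicate 1 and without MSC-EV replicate 3, and was lost without any one of the other 4 samples compared (adjusted p up to 0.108). The count of 895 was 1424 without PBS replicate 1, 1, 167 and 107 without HEK-EV replicates 1, 2 and 3 in turn, 4 without MSC-EV replicate 1 and 0 without MSC-EV replicate 2, where 2505 genes had an unadjusted p under 0.05.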

How the data were processed

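RNA of CD11b+ liver cells was extracted with Trizol and sequenced from TruSeq Stranded mRNA libraries, per the labels' protocols. The submitters' processing notes name HISAT2 2.1.0, StringTie and the mm10 build; whether genes were quantified by strand is not given in the sources used here. Each sample had 1 table of genes with coverage (the mean read signal over a gene), FPKM and TPM as deposited by the authors, per the file headers. TPM were used without further scaling, and FPKM and coverage served as an alternative and for relative depth. Gene IDs were matched to RefSeq GRCm38.p6 (45679 of 45777, 99.79%, had a symbol), and rows of 1 gene ID were summed.

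Samples were grouped by their treatment label. Genes were kept if 3 or more of the 6 PBS and MSC-EV samples reached 1 TPM, and log2(TPM + 1) was modelled in R 4.3.3 by limma 3.58.1 (eBayes with a trend), all 9 samples in 1 fit and no covariate. Fold changes are differences on that scale, which understate changes of low genes. Tests were two-sided, and adjusted p is Benjamini-Hochberg over all 13521 genes, with a threshold of 0.05. "Rose", "fell" and "passed" refer to that threshold. An exact permutation test of 3 against 3 cannot go below 0.1 and was not used. On 5 simulated data sets of 13521 genes for MSC-EV against PBS, with 200 changed genes each, 91.8% of 2-fold and 99.2% of 4-fold changes were recovered, and 5.9% of calls were unchanged genes. The simulated noise was independent between genes and equally wide in all samples. Changes below 2-fold, or in genes of low level, were not planted. Shifts of 1 library shared by many genes were not simulated, so these rates cannot be carried over to the real data.

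The comparison, its 39 gene lists and the rule for named genes were chosen with earlier results of these data known. The rule took up to 12 genes per direction ranked by size of change, if called, free of overlap, averaging 5 TPM or more in whichever group was higher, and not a predicted gene or clone; it also took up to 4 called members of each list by p (the 2 of smallest p where none passed), sample checks and defining markers of other cell types. Members named besides these (Isg15, Irf7, Ccr2, Il1b, Tnf, Ccl2, Mertk, Mrc1, Abca1, Spp1, Mmp12, Cd74, Clec4f and further called members of a list) were chosen after their values were seen. A few list members are counted but not reported here by name. Some genes are in 2 lists, such as Chil3, Fabp4, Fabp5, Apoe, Cd63, Ctsb, Ctsd, Ms4a4c and Il18. The alternatives were another pseudocount (0.1), no filter, a minimum of 5 TPM, a filter over all 9 samples, FPKM, median-of-ratios scaling, quantile normalization, only the 6 samples compared, a replicate block, array weights, a robust fit, depth, an acinar split at its widest gap (HEK-EV replicate 2 and MSC-EV replicate 3 on the high side), and each sample left out. An acinar split above the PBS samples (HEK-EV replicates 1 and 2, MSC-EV replicates 1 and 3) and leaving out the high side of the first split were added after the data were seen. Python 3.11.15 with numpy 2.4.6, pandas 2.3.3 and matplotlib 3.10.9 served for tables and figures.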

Additional observations from a re-analysis of the deposited data

How the results depend on the processing

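For MSC-EV against PBS the count of 747 moved by over 1.5 times with no filter (400), only the 6 samples compared (167), a replicate block (491), array quality weights (4203), depth as a covariate (1393), the acinar split as a term (185 at the widest gap, 27 above the PBS samples) and the acinar-rich libraries left out (0). Leaving out 1 sample gave 11 to 1923. The remaining alternatives gave 626 to 838. For MSC-EV against HEK-EV the count of 895 moved to 398 with no filter, 513 on FPKM, 548 after median-of-ratios scaling, 2128 with weights, 1501 with depth, 537 and 587 with the acinar terms and 0 with the libraries left out (2899 genes at an unadjusted p under 0.05 in limma), and to 0 to 1424 with 1 sample left out. The cause of these moves was not tested.

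With the replicate block 518 genes passed for MSC-EV against HEK-EV, and against PBS 3 interferon genes, 1 endothelial gene and 1 lipid-associated macrophage gene passed as lower and 7 MHC class II genes as higher. Same-numbered PBS and MSC-EV samples did not deviate together (correlations of 0.0621, -0.1053 and -0.2078), so the numbers were not taken as pairs.

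Over the alternatives, the 85 called genes named or listed by the rule gave 2029 values, of which 1224 stayed past the threshold, 805 did not, and none changed sign. Of 496 values of 21 genes that had not passed, 44 passed, and 2 changed sign: Kit was at 0.29 with depth as a covariate (-0.15 without it) and Ddx3y at -0.03 without PBS replicate 3. With 1 of the other samples left out Ddx3y stayed above 0 (up to 0.09). List medians that changed sign under some alternative were those of cholesterol efflux, cytokines, efferocytosis, cell cycle, dendritic cells, mast cells, platelets and stellate cells. Depth in reads is unknown, and differences in low genes cannot be given a counting error.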
